A study of Mus musculus with 20 samples.

Results

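Bdh1, Acat1 and Slc16a1 serve the making and export of ketone bodies, and their chromatin was described in fasted mouse liver by chromatin immunoprecipitation followed by sequencing (ChIP-seq) of 3 histone marks. A consensus interval, a stretch of genome listed by the authors for a mark over all its libraries, was counted with a gene when its middle lay in the RefSeq gene body or within 10 kb of it. This gave 14 of 65776 H3K27ac intervals (7 of Bdh1, 6 of Acat1 and 1 of Slc16a1), 47 of 103014 H3K4me1 intervals (30, 8 and 9) and 12 of 46568 H3K9ac intervals (4, 6 and 2), for 3 of 21900 protein-coding genes. Of these, 5 H3K27ac and 8 H3K4me1 intervals held a peak in all 8 libraries of their mark and entered the tests. None of the Slc16a1 H3K4me1 intervals did.

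The livers came from male C57BL/6 mice aged 9 weeks, kept on standard chow and fasted for 24 h from one mid-afternoon to the next. Wild-type livers (WT) were set beside livers with a liver-restricted deletion of Cpt2 (Cpt2 L-/-, here Cpt2 KO), livers of Ppara -/- mice (Ppara KO), and livers carrying both deletions (Cpt2 L-/- ; Ppara -/-, DKO). The labels do not name the Cre line behind the liver deletion, and a liver deletion leaves Cpt2 in other organs. H3K27ac and H3K4me1 were measured in 2 livers per genotype, and the peak names carry the same liver code for both marks of a replicate, so the marks are not independent samples. H3K9ac was measured in 1 WT and 1 Cpt2 KO liver. All groups were fasted, so no value speaks to fed liver.

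Ketone bodies are water-soluble fuels that hepatocytes make from the acetyl-CoA of fatty acid oxidation during a fast and that other organs burn. In mitochondria, the thiolase encoded by Acat1 joins acetyl-CoA units into acetoacetyl-CoA, later enzymes turn it into acetoacetate, and Bdh1 encodes the dehydrogenase that interconverts acetoacetate and beta-hydroxybutyrate. Slc16a1 encodes the monocarboxylate transporter MCT1, which carries ketone bodies and lactate across the cell membrane. Cpt2 encodes a carnitine palmitoyltransferase that lets mitochondria burn long-chain fatty acids. Ppara encodes the lipid-activated nuclear receptor behind many fasting genes. H3K27ac marks active enhancers and promoters, H3K4me1 marks enhancers, and H3K9ac marks active promoters.

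The starts of Bdh1 and Slc16a1 lie under called peaks, so the 250 bases before the first RefSeq start of each gene are shown (GRCm38.p6, plus strand, 5′ to 3′; capitals mark a GGGCGG match). The Bdh1 stretch is chr16:31422047-31422296 and the Slc16a1 stretch is chr3:104638414-104638663.
Bdh1: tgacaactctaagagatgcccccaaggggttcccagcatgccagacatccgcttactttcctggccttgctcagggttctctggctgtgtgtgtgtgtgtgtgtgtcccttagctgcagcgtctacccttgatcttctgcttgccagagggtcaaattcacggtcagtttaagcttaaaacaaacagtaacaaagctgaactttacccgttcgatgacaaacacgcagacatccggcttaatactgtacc
Slc16a1: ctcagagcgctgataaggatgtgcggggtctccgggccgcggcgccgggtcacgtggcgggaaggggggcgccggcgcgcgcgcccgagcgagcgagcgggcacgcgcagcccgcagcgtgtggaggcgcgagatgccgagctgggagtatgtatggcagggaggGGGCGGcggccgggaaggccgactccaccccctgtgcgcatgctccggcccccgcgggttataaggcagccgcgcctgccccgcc
The 2 stretches differ in base composition. The Bdh1 stretch was 49.6% G or C with 7 CG pairs, close to the median of 52.4% over all RefSeq promoters, and the Slc16a1 stretch was 76.4% G or C with 37 CG pairs. On both strands, a direct repeat of AGGTCA with any 1 base between (the type of element that PPAR and RXR bind), the single AGGTCA, the box CCAAT and the box TATAAA were found in neither stretch, and the box GGGCGG was found once, in Slc16a1. Over 32817 promoter stretches of the same length, these motifs occurred in 0.0335%, 14.0%, 33.8%, 12.4% and 32.7%, respectively. Every match of the direct repeat also holds the single AGGTCA. A match or its absence describes letters in this window only.

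Each value below is the fold enrichment of ChIP over input at the highest peak of a library in an interval, as the authors' peak caller gave it. Where a library had no peak there is no value, and "not called" is not a measured 0. Read depth is not given by the files used here. H3K27ac lists held 44454 to 48929 peaks and H3K4me1 lists 61189 to 72151. Smallest peak width differed between libraries: 217 to 223 bases in the 4 Cpt2-null H3K27ac libraries (Cpt2 KO and DKO) and 198 to 210 in the 4 Cpt2-intact ones (WT and Ppara KO). Some intervals near the deleted genes were called in all 4 intact and no null liver. These were 1 of 5 H3K27ac intervals of Cpt2 and 1 of 26 of Ppara, and 0 of 7 and 2 of 40 in H3K4me1. The opposite was seen at 1 of 26 H3K27ac intervals of Ppara. Of all H3K27ac intervals, 0.725% had the intact-only pattern for Ppara. By a looser rule, at least 3 calls against none, H3K27ac shares were 2.49% for Cpt2 intact only and 1.63% for Ppara null only. H3K4me1 shares by that rule were 1.3% for Cpt2 and 2.84% for Ppara, intact only. Histone marks do not test the deletions themselves. All 8 hepatocyte markers checked had an H3K27ac peak in every library. The p-values below rest on the spread between the 2 livers of a genotype, pooled over the 4 genotypes and moderated over all features.

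Of the 3 genes, Acat1 alone passed a test between genotypes at the settings used here. That test was of bases covered by peaks, a measure added after the peaks of Acat1 had been seen. The H3K27ac domain of Acat1 was long in WT and Cpt2 KO livers, shorter in Ppara KO livers and reduced to short remnants in DKO livers. Acat1 lies on chromosome 9 at 53580522 to 53610350 in mm10. H3K27ac peaks in and within 10 kb of it covered 14878 and 13457 bases for WT, 13893 and 14438 for Cpt2 KO, 7704 and 6709 for Ppara KO, and 1894 and 2821 for DKO. The WT and Cpt2 KO values overlapped, every Ppara KO value was below them, and both DKO values were lowest. Covered bases in every Ppara-null liver were below those in every Ppara-intact liver at 5.62% of protein-coding genes with a peak. Mean covered length was 14167.5 ± 1004.8 bases for WT, 14165.5 ± 385.4 for Cpt2 KO, 7206.5 ± 703.6 for Ppara KO and 2357.5 ± 655.5 for DKO (SD, n = 2 livers each). Inside the gene body alone, peaks covered 43.2% and 39.8% of the bases for WT, 42.3% and 44.7% for Cpt2 KO, 23.4% and 18.6% for Ppara KO, and 4.59% and 8.12% for DKO.

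Covered bases were tested across 12072 protein-coding genes with limma, on log2(bases + 200) centred per library; this measure was added after the peaks of Acat1 had been seen. Acat1 fell by 1.71 (SE 0.12, limma adjusted p = 0.000385) in Ppara-null livers (Ppara KO and DKO) against Ppara-intact livers (WT and Cpt2 KO), and 126 genes had a lower difference. Of all genes tested, 9.4% passed as lower in this comparison, and Bdh1 and Slc16a1 did not pass. In the Cpt2 comparison, where 19.7% of genes passed as lower, Acat1 fell by 0.78 (SE 0.12, limma adjusted p = 0.00412). That average hides unequal parts: the Cpt2 KO minus WT difference was 0.02 and the DKO minus Ppara KO difference was −1.59. The interaction, the Cpt2 effect in Ppara-null minus that in Ppara-intact livers, was −1.61 (SE 0.23, limma adjusted p = 0.0434), with 0.472% of genes passing as lower. The Ppara call held under all 16 alternatives run, with differences from −1.81 to −1.52. With smallest peak width as a covariate, the Cpt2 difference was −1.26 (SE 0.30, limma adjusted p = 0.201); no gene of the 12072 passed for Cpt2 in that limma fit, and 1819 had an unadjusted p under 0.05. The interaction call was lost in 11 of 16 alternatives (adjusted p from 0.0335 to 0.164 over all settings).

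In whole liver, fewer cells carrying a mark and less mark per cell cannot be told apart. H3K27ac peaks at markers of other cells differed with Cpt2 genotype, in folds that were not centred; with Cpt2 deleted, library medians of log2 fold were 0.27 higher. Endothelial markers (4 of 4 with a peak in every library) had summed folds of 54.4 to 68.8 in Cpt2-intact and 86.1 to 98.7 in Cpt2-null livers. Kupffer cell and leukocyte markers had 3 to 4 of 5 with a peak and summed folds of 26.9 to 39.2 in Cpt2-intact livers, against 4 to 5 of 5 and 51.6 to 68.3 in Cpt2-null livers; Adgre1 had a peak in only 3 libraries. By Ppara state, summed endothelial folds overlapped (54.4 to 98.7 in intact, 59.8 to 97.7 in null). Sums for Kupffer cell and leukocyte markers overlapped too (26.91 to 59.84 in intact, 37.45 to 68.26 in null). So did those for stellate markers (16.5 to 28.7 in intact, 8.14 to 22.1 in null). Hepatocyte markers had summed folds of 123.1 to 170.6 in Cpt2-intact and 141.3 to 209.5 in Cpt2-null livers, and of 123.1 to 148.5 in Ppara-intact and 144.8 to 209.5 in Ppara-null livers. Stellate markers had 1 to 3 of 4 with a peak and Col1a1 none, with summed folds of 8.14 to 21.1 in Cpt2-intact and 20.6 to 28.7 in Cpt2-null livers. Of the cholangiocyte markers Krt19, Epcam and Spp1 had no peak in any library, and Sox9 had folds of 5.81 to 19.7 in Cpt2-intact livers, 6.5 and 9.57 in DKO and no peak in either Cpt2 KO liver. The part of cell makeup in the covered bases of Acat1 was not tested.

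**Figure D1:**
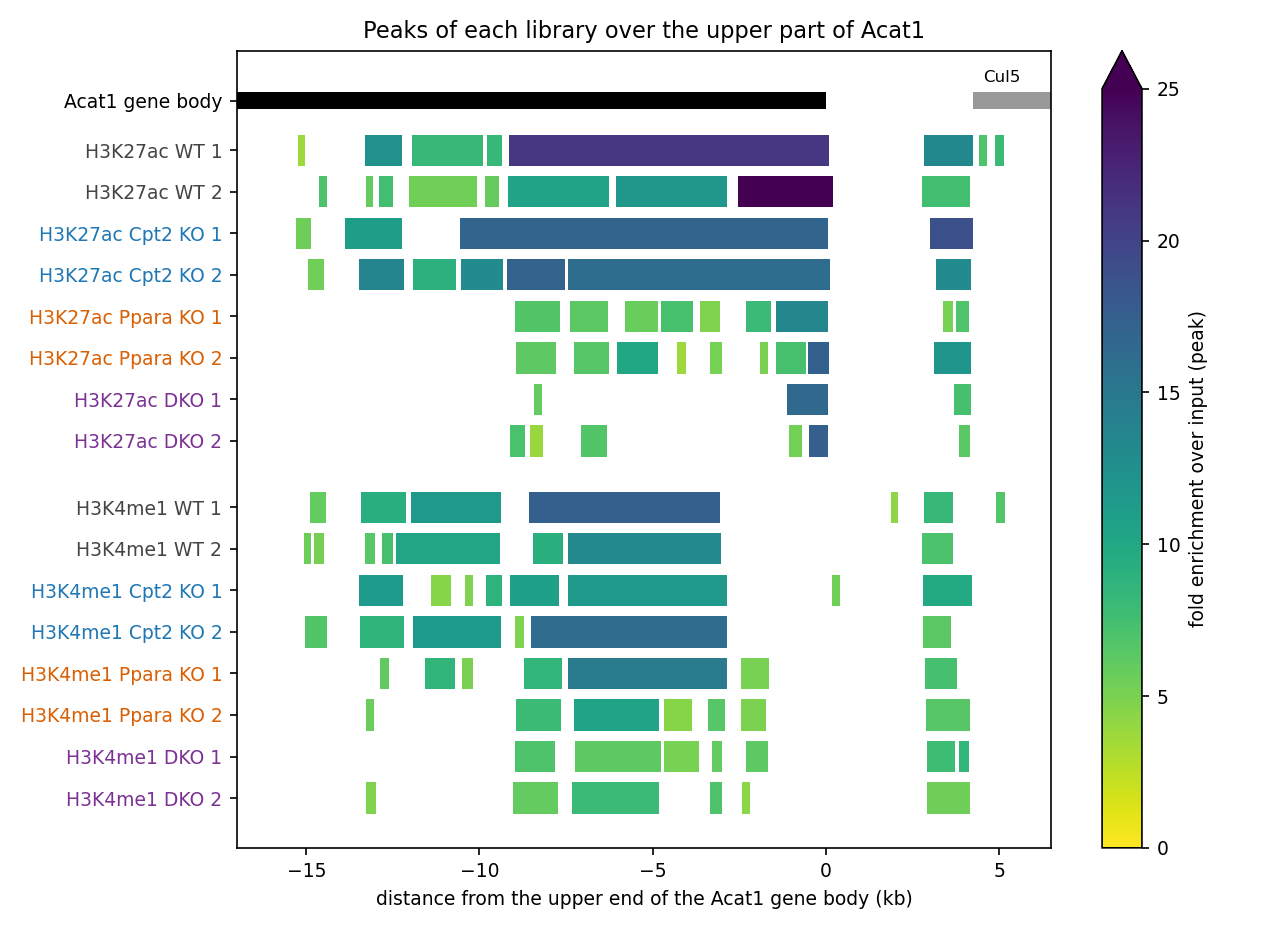
Peaks of each H3K27ac and H3K4me1 library over the upper part of Acat1, by distance in kb from the upper end of the gene body (x axis), 1 row per library, coloured by the peak's fold over input. The H3K27ac blocks are long in WT and Cpt2 KO, broken in Ppara KO and short in DKO, whereas a block at the upper end is present in all 8 libraries.

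The loss of covered bases was not uniform along Acat1. The widest H3K27ac interval of the gene (53598311 to 53610557) was filled by 3 and 5 peaks in WT, the widest 9242 and 3230 bases long, and by 1 and 4 peaks in Cpt2 KO, the widest 10613 and 7551 bases long. In Ppara KO it held 7 and 8 peaks with none over 1493 bases, and in DKO 2 and 5 peaks with none over 1173 bases. The highest summit lay 219 to 247 bases inside the upper end of the gene in the 6 WT, Ppara KO and DKO libraries, and 6552 and 8340 bases inside in Cpt2 KO.

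At that interval the highest fold changed less than the covered length. Folds were 21.0 and 26.9 for WT, 16.9 and 17.2 for Cpt2 KO, 13.4 and 17.4 for Ppara KO, and 16.6 and 17.6 for DKO. Both WT livers were highest, and the 3 mutant genotypes overlapped. The Cpt2 KO folds were read at summits 6552 and 8340 bases inside the upper end, unlike those of the other genotypes. WT and Cpt2 KO folds are therefore not from the same place in the interval. The log2 difference was −0.35 (SE 0.14, limma adjusted p = 0.157) for Ppara and −0.43 (SE 0.14, limma adjusted p = 0.0637) for Cpt2, each with a 95% half-width of 0.30, and neither passed over all intervals.

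Deeper in the gene, 2 H3K27ac intervals of Acat1 were called in all 4 Ppara-intact livers and in no Ppara-null liver. The interval at 53596479 to 53598161 read 12.5 and 7.61 for WT and 11.2 and 13.6 for Cpt2 KO. The interval at 53595058 to 53595954 read 3.67 and 7.04 for WT and 5.5 and 5.4 for Cpt2 KO. Both lie inside the gene body, and they made up 2 of the 14 H3K27ac intervals of the 3 genes. Of all 65776 H3K27ac intervals, 0.725% had this pattern; at least 3 calls in intact livers and none in null livers occurred at 1.73%, and the reverse at 1.63%. These are descriptions of calls with no test.

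H3K4me1 at Acat1 shortened less. Covered bases were 11205 and 10288 for WT, 10139 and 11180 for Cpt2 KO, 8850 and 7240 for Ppara KO, and 6644 and 5949 for DKO. Every Ppara-null value lay below every Ppara-intact value, which held for 3.92% of genes with a peak. The difference of −0.41 (SE 0.16, limma adjusted p = 0.183) did not pass, and 2.59% of genes passed as lower. Smallest H3K4me1 peak widths were 199 and 199 bases for WT and 211 and 196 for Cpt2 KO. They were 200 and 216 for Ppara KO and 210 and 221 for DKO, so width and Ppara state overlap in part. At the main H3K4me1 interval (53601219 to 53607490), folds were 17.5 and 13.3 for WT, 11.5 and 16.2 for Cpt2 KO, 14.7 and 10.5 for Ppara KO, and 7.0 and 8.08 for DKO. Only the DKO livers stood apart from the rest, and the Ppara difference was −0.58 (SE 0.20, limma adjusted p = 0.208).

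Within the same domain, 1 H3K4me1 interval was called in Ppara-intact livers alone and 1 in Ppara-null livers alone. The interval at 53595283 to 53595939, over the deeper of the H3K27ac intervals, was called in WT (6.0 and 5.6) and Cpt2 KO replicate 2 (6.8). It was called in no Ppara-null liver. The libraries that called it have smallest peak widths of 196 to 199 bases. Cpt2 KO replicate 1, at 211 bases, and Ppara KO replicate 1, at 200 bases, did not call it. The interval at 53607893 to 53608713 was called in all 4 Ppara-null livers, at 5.17 and 4.95 for Ppara KO and 6.25 and 4.34 for DKO, and in no Ppara-intact liver. It lies where H3K27ac formed a continuous block in WT and Cpt2 KO. H3K27ac peaks also overlapped it in both Ppara KO livers, at folds of 8.04 and 4.99, and in neither DKO liver. The background share was 2.84% of H3K4me1 intervals for at least 3 intact and no null liver, 0.385% for all 4 null and no intact liver, and 1.96% for at least 3 null and no intact liver. A further interval at 53596880 to 53600995 was singled out after its values were seen. It had folds of 10.3 to 11.6 in the Ppara-intact livers, 8.6 and 5.64 in Ppara KO, and 4.8 in DKO replicate 2. It was not called in DKO replicate 1.

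Beyond the upper end of Acat1, the intervals at 53613109 to 53614595 (H3K27ac) and 53613132 to 53614555 (H3K4me1) are nearest to Cul5, a cullin gene. Both were singled out after their values were seen. H3K27ac folds there were 13.3 and 7.57 for WT, 18.9 and 13.1 for Cpt2 KO, 6.88 and 12 for Ppara KO, and 7.33 and 6.44 for DKO. Both DKO livers lay below the WT and Cpt2 KO livers, both Ppara KO livers lay below the Cpt2 KO livers, and the other pairs overlapped. The Ppara difference of −0.70 (SE 0.24, limma adjusted p = 0.0999) did not pass.

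**Figure D2:**
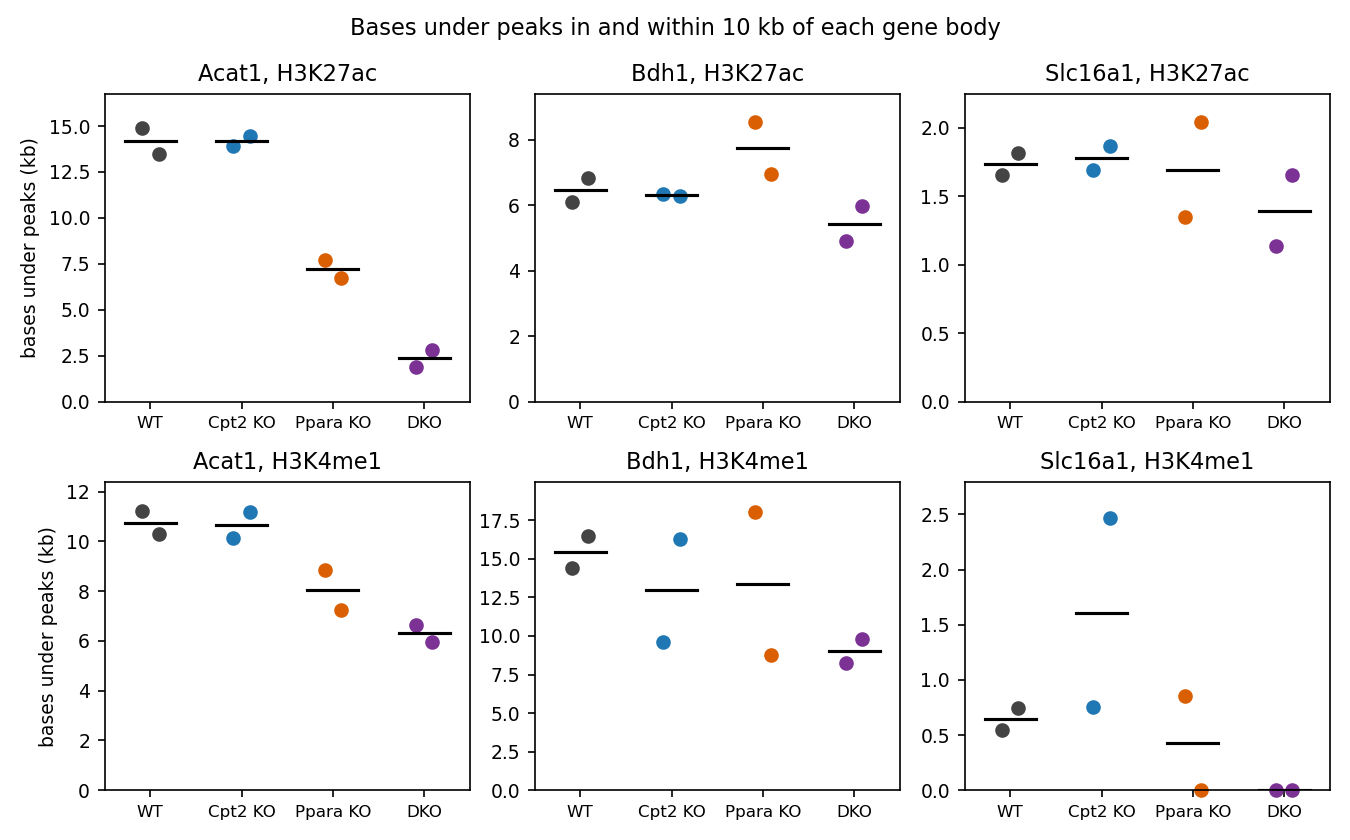
Bases under peaks (kb) in and within 10 kb of each gene body, by genotype; points are livers and bars the means of 2. Acat1 H3K27ac falls from about 14 kb in WT and Cpt2 KO to 6.7 and 7.7 kb in Ppara KO and 1.9 and 2.8 kb in DKO, whereas the 8 livers lie between 4892 and 8533 bases at Bdh1 and between 1137 and 2038 bases at Slc16a1.

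Bdh1 kept strong H3K27ac at its first start in all genotypes. The gene lies on chromosome 16 at 31422297 to 31458901. Its start interval (31421067 to 31425632) had H3K27ac folds of 16 and 13.3 for WT, 18.9 and 17.8 for Cpt2 KO, 12.4 and 16.5 for Ppara KO, and 13.3 and 14.4 for DKO. Cpt2 KO livers were highest and the other genotypes overlapped. The Ppara difference was −0.25 (SE 0.16, limma adjusted p = 0.396) and the Cpt2 difference −0.12 (SE 0.16, limma adjusted p = 0.646), with 95% half-widths of 0.35. The sign of the Cpt2 difference is negative although Cpt2 KO folds were high, because each library was centred on its own median, and without centring it was 0.14.

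Upstream of Bdh1, a second H3K27ac interval (31418951 to 31420789, its middle 2427 bases before the gene) varied more, and it is named because of its values. Folds were 4.64 and 10.8 for WT, 19.4 and 18.3 for Cpt2 KO, 5.23 and 19.6 for Ppara KO, and 15 and 18.1 for DKO. All 4 Cpt2-null values were above 3 of the 4 Cpt2-intact values, and Ppara KO replicate 2 matched them. The Cpt2 difference of 0.79 (SE 0.32, limma adjusted p = 0.111) did not pass. H3K4me1 at the same place (31418921 to 31420798) was 7.45 and 6.29 for WT, 13.3 and 7.83 for Cpt2 KO, 5.0 and 8.09 for Ppara KO, and 10.8 and 11 for DKO. Its Cpt2 difference of 0.68 (SE 0.22, limma adjusted p = 0.439) had the same sign and did not pass.

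The H3K4me1 interval that ends just before the Bdh1 start (31420979 to 31422214) had folds of 11.7 and 10.3 for WT, 13 and 6.11 for Cpt2 KO, 11.9 and 13.6 for Ppara KO, and 13.6 and 12.9 for DKO. Cpt2 KO replicate 2 was lowest, and the Ppara difference of 0.39 (SE 0.22, limma adjusted p = 0.430) did not pass. In the far part of the gene body, the H3K4me1 interval at 31452812 to 31455585 was 4.83 and 8.0 for WT, 8.54 and 8.6 for Cpt2 KO, 10.9 and 8.12 for Ppara KO, and 10.1 and 12.2 for DKO. An H3K27ac interval inside it (31454270 to 31455504) was called in WT replicate 2 (5.0), Cpt2 KO replicate 1 (4.44) and all 4 Ppara-null livers (6.91 and 6.16 in Ppara KO, 8.76 and 8.19 in DKO). The called folds were higher in the Ppara-null livers than in either intact one; both intervals were singled out after their values were seen, and the H3K4me1 difference of 0.48 (SE 0.21, limma adjusted p = 0.322) did not pass.

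**Figure D3:**
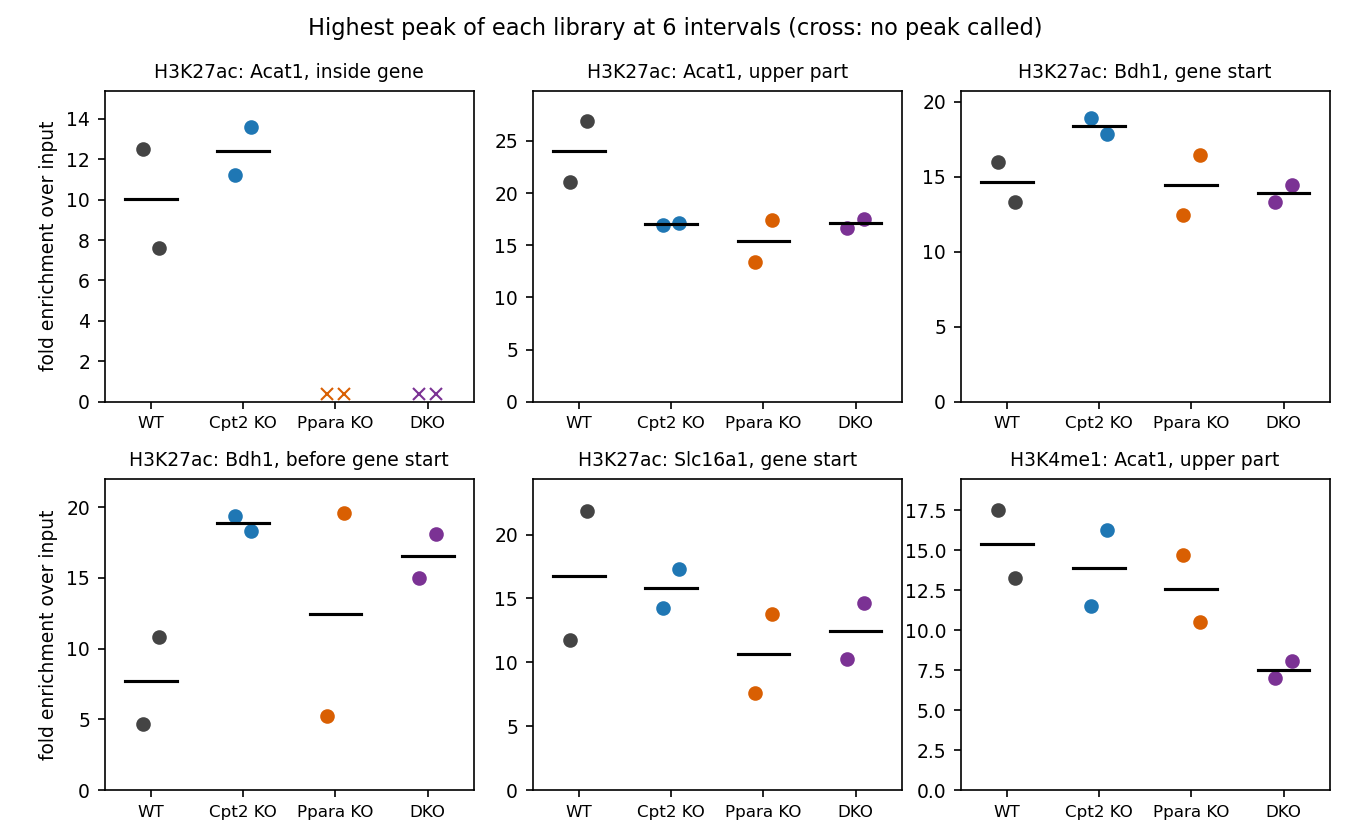
Fold enrichment over input of the highest peak in each liver at 6 intervals, by genotype; points are livers, bars the means of 2, and crosses livers without a called peak. The inside interval of Acat1 has no peak in the 4 Ppara-null livers, and the Bdh1 and Slc16a1 starts have a peak in every liver.

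H3K27ac covered 6095 and 6834 bases around Bdh1 for WT, 6350 and 6286 for Cpt2 KO, 8533 and 6957 for Ppara KO, and 4892 and 5971 for DKO. Ppara KO livers were highest and DKO livers lowest. The Cpt2 difference of −0.27 (SE 0.09, limma adjusted p = 0.0533) missed the threshold, and it passed in 2 alternatives, with a 5 kb window and with no filter on covered bases. The Ppara difference was 0.04 (SE 0.09, limma adjusted p = 0.775).

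H3K4me1 around Bdh1 was the most fragmented of the sets, and the 2 livers of Cpt2 KO, and of Ppara KO, differed widely in their number of calls. Of 30 intervals, 16 and 21 were called for WT, 10 and 18 for Cpt2 KO, 22 and 8 for Ppara KO, and 9 and 11 for DKO. The 4 libraries with a smallest peak width of 196 to 200 bases (WT replicates 1 and 2, Cpt2 KO replicate 2 and Ppara KO replicate 1) called 16 to 22 intervals, and the 4 libraries at 210 to 221 bases called 8 to 11. The covered bases were 14392 and 16489 for WT, 9630 and 16315 for Cpt2 KO, 18019 and 8754 for Ppara KO, and 8260 and 9794 for DKO. The same 4 libraries were high; both WT libraries are among them and both DKO libraries are not, so width and genotype overlap in part. The Ppara difference in covered bases was −0.22 (SE 0.15, limma adjusted p = 0.437).

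At the second RefSeq start of Bdh1, an H3K4me1 interval (31428573 to 31430392) that also holds the start of the noncoding gene Gm15743 was called in 5 livers, at 5.29 and 6.5 for WT, 3.11 and 8.14 for Cpt2 KO and 3.0 for Ppara KO replicate 1. The interval at 31441652 to 31441954 was called in WT (4.39 and 5.89) and Cpt2 KO replicate 2 (5.0) and in no Ppara-null liver. All 3 of these libraries are among the 4 with the smallest widths. No H3K27ac interval of Bdh1 was confined to one state of Ppara or of Cpt2 by the rule of at least 3 calls against none.

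**Figure D4:**
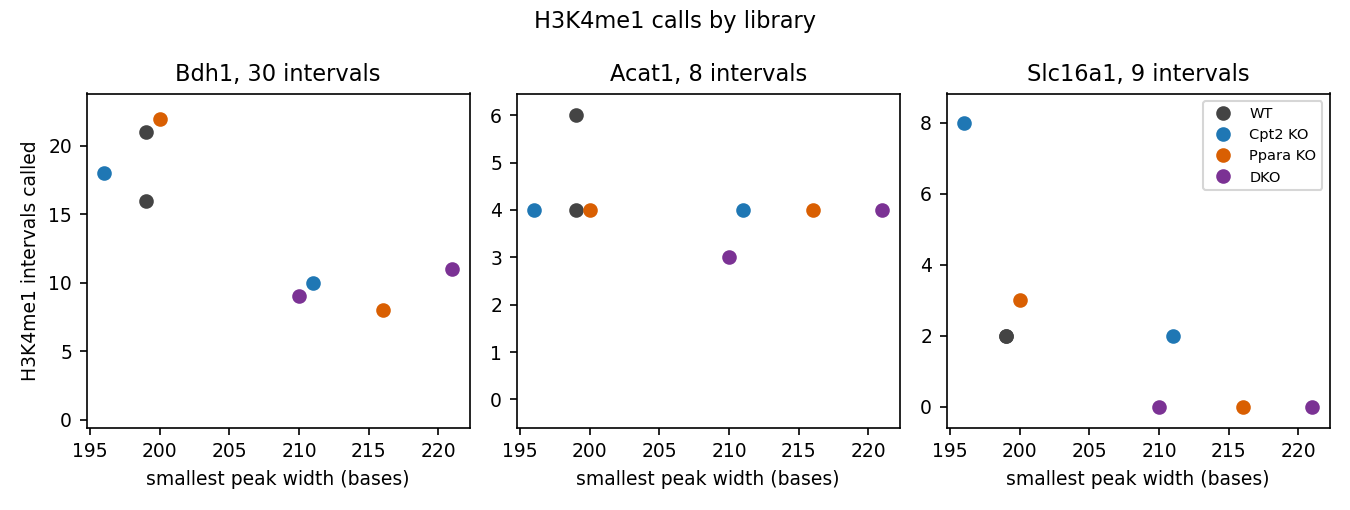
Number of H3K4me1 intervals called in each library (y axis) against the library's smallest peak width in bases (x axis), for each gene; colours are genotypes, and the 2 WT points coincide for Slc16a1. Bdh1 counts are 16 to 22 at widths of 196 to 200 bases and 8 to 11 at 210 to 221 bases, and the 2 livers of Cpt2 KO, and of Ppara KO, fall on different sides.

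Slc16a1, the exporter, carried a single compact H3K27ac interval over its start. The gene lies on chromosome 3 at 104638664 to 104658462, and the interval at 104637782 to 104639819. H3K27ac folds were 11.7 and 21.8 for WT, 14.3 and 17.3 for Cpt2 KO, 7.57 and 13.8 for Ppara KO, and 10.3 and 14.7 for DKO. The WT livers differed from each other by more than any genotype means did. Both Cpt2 KO livers lay above both Ppara KO livers, and the other genotype pairs overlapped. The Ppara difference was −0.53 (SE 0.22, limma adjusted p = 0.154), with a 95% half-width of 0.46, and the Cpt2 difference −0.15 (SE 0.22, limma adjusted p = 0.686). Covered bases were 1653 and 1814 for WT, 1691 and 1868 for Cpt2 KO, 1347 and 2038 for Ppara KO, and 1137 and 1652 for DKO, with a Ppara difference of −0.16 (SE 0.16, limma adjusted p = 0.533).

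H3K4me1 was sparse at Slc16a1. Of 9 intervals, 2 and 2 were called for WT, 2 and 8 for Cpt2 KO, 3 and 0 for Ppara KO, and none in either DKO liver. The interval at 104640383 to 104641132, singled out after its values were seen, was called in all 4 Ppara-intact livers (WT 5.53 and 6.45, Cpt2 KO 6.44 and 5.36). It was also called in Ppara KO replicate 1 (5.53). Covered bases were 547 and 741 for WT, 750 and 2464 for Cpt2 KO, 850 and 0 for Ppara KO, and 0 and 0 for DKO. Cpt2 KO replicate 2 was far above the rest. The gene passed the filter of a mean of 500 bases through the Ppara-intact livers and Ppara KO replicate 1 alone, and did not pass it without Cpt2 KO replicate 2. Its Ppara difference of −1.77 (SE 0.59, limma adjusted p = 0.134) is therefore a description; it ran from −2.26 to −0.66 over the settings that gave a value. The 3 livers without a call have smallest widths of 210 to 221 bases, and with smallest width as a covariate the difference was −0.90 (limma adjusted p = 0.617).

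**Figure D5:**
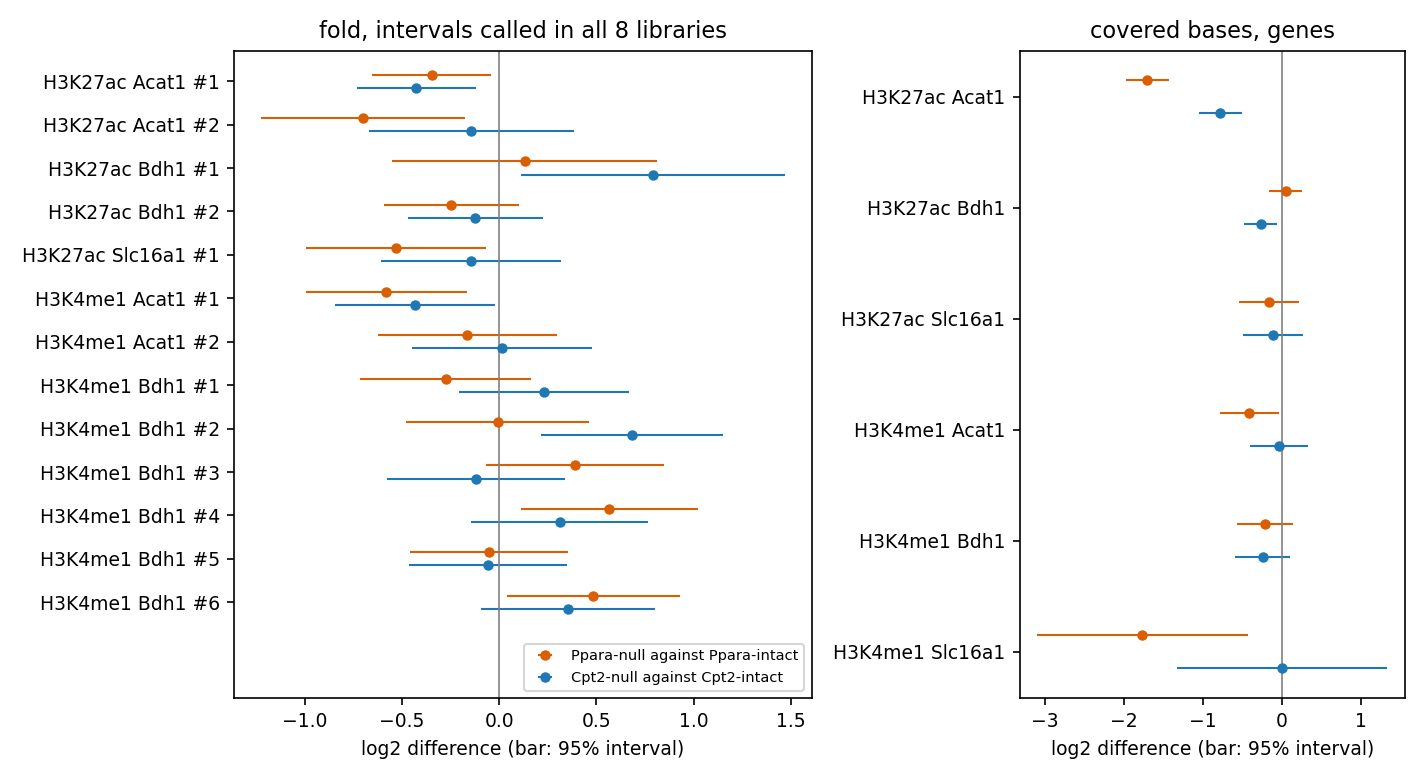
Log2 differences (x axis) with 95% intervals, for the highest fold at the 13 intervals called in all 8 libraries (left, numbered by position within a gene) and for covered bases of each gene (right), Ppara-null against Ppara-intact in orange and Cpt2-null against Cpt2-intact in blue. Adjusted over all features tested, the 2 Acat1 H3K27ac differences in covered bases passed and no other did. Covered bases were added as a measure after the peaks of Acat1 had been seen.

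Across the 3 genes, 0 of 5 H3K27ac intervals and 0 of 8 H3K4me1 intervals passed the limma test of fold in any contrast. In H3K27ac, 7.34% of all 18281 intervals passed for Ppara, 12.3% for Cpt2 and 0.00547% for the interaction. In H3K4me1, 0.128% of 19526 passed for Ppara, and 0 for Cpt2 and the interaction. At an unadjusted p under 0.05 by limma, 3 of 5 H3K27ac intervals passed for Ppara, 2 for Cpt2 and 1 for the interaction, against 23.1%, 30.1% and 15.2% of all intervals. For H3K4me1 the numbers were 3 of 8 for Ppara, 2 for Cpt2 and 0 for the interaction, against 13.9%, 9.81% and 2.9%. The median Ppara difference over the 5 H3K27ac intervals was −0.35, beside −0.01 over all intervals, and over the 8 H3K4me1 intervals −0.03, beside −0.01. The lowest of the 5 H3K27ac differences, −0.70, lay at the interval nearest to Cul5, which is also among the 3 of 5. By call pattern, 0 intervals of the 3 genes were confined to one state of Cpt2 in either mark, where 2.49% of H3K27ac intervals were called in at least 3 intact and no null liver and 4.5% the reverse, and 1.3% and 1.41% of H3K4me1 intervals.

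H3K9ac, with 1 liver per genotype and positions only, gives no test. Around Bdh1 peaks covered 4258 bases in WT and 4764 in Cpt2 KO, around Acat1 9171 and 8924, and around Slc16a1 2284 and 2616. All 3 genes had H3K9ac in both livers. The start interval of Bdh1 (31422261 to 31425792), the upper-end interval of Acat1 (53607818 to 53610520) and the start interval of Slc16a1 (104637683 to 104639972) were called in both. In WT alone, 2 short intervals of Bdh1 were called (31425866 to 31426177 and 31431618 to 31432071), and in Cpt2 KO alone 1 of Acat1 (53595258 to 53595648). Of all H3K9ac intervals, 20.8% were called in WT only and 23.9% in Cpt2 KO only.

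Of 11 other genes of ketone body metabolism and monocarboxylate transport, 9 had H3K27ac intervals in the test, and 3 of their 19 intervals passed for Ppara, beside 7.34% of all tested intervals. Aacs, the cytosolic acetoacetyl-CoA synthetase that uses acetoacetate for lipid synthesis, was lower at 125495908 to 125496624 on chromosome 5, with folds of 14.3 and 11.2 for WT, 9.73 and 9.64 for Cpt2 KO, 5.09 and 7.52 for Ppara KO, and 5.64 and 6.38 for DKO (−0.89, SE 0.20, limma adjusted p = 0.0164). Every Ppara-null value was below every intact one, as at 3.28% of the tested intervals. Slc16a7, a related monocarboxylate transporter (MCT2), was higher at 125267965 to 125271962 on chromosome 10, with folds of 5.9 and 4.45 for WT, 10.5 and 9.62 for Cpt2 KO, 14.8 and 13.1 for Ppara KO, and 12 and 12.3 for DKO (0.83, SE 0.19, limma adjusted p = 0.0210). An interval in the Slc16a6 window but nearest to Arsg was also higher (1.01, SE 0.17, limma adjusted p = 0.00431). The other 16 intervals did not pass for Ppara, and none of the 19 passed for Cpt2, beside 12.3% of all tested H3K27ac intervals. In H3K4me1, 0 of 23 tested intervals of these genes passed for either deletion. Of all tested H3K4me1 intervals, 0.128% passed for Ppara and 0 for Cpt2. The shared Ppara-intact-only call pattern was seen at 4 of their 59 H3K27ac intervals (1.73% of all), all of Aacs and all also missing in Cpt2 KO replicate 1, and at 7 of their 100 H3K4me1 intervals (2.84% of all), 3 of them of Aacs.

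Genes with the most similar H3K27ac pattern were sought among 9293 genes by Pearson correlation of centred log2 folds over the 8 libraries, which share their genotype groups; the values are descriptions. For the Bdh1 start interval the closest were Camk2b (r = 0.990), Bbox1 (0.940) and Mrpl14 (0.931). For the main Acat1 interval they were Dap (0.993), Bmi1 (0.989) and Casd1 (0.989). Among the closest to the Slc16a1 start were Tfg (0.977) and Pex3 (0.972).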

How the data were processed

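Per the labels and the submitters' processing notes, the authors aligned ChIP-seq reads with BWA to mm10 and called narrow peaks with MACS2 2.1.0, per library; the labels list pooled inputs. The deposited lists give for each peak a fold enrichment (a ratio of ChIP over input) and −log10 q, made by the authors. The smallest −log10 p was 7.02, per the deposited lists. Consensus tables hold positions only. One library (H3K27ac, Ppara KO, replicate 2) has peak names with a different build tag; 79.0% of the peaks of its partner overlapped its own, beside 79.2% to 85.9% for other pairs, and it was used as mm10.

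Highest folds of peaks overlapping an interval by at least 1 base were put on a log2 scale, centred on each library's median, and compared between states by limma 3.58.1 (R 4.3.3; lmFit, eBayes with trend) over intervals called in all 8 libraries. All p-values were Benjamini-Hochberg adjusted over all features, with 0.05 as threshold. Covered bases were tested alike over protein-coding genes with a mean of at least 500, with 200 bases added; both fits were checked on simulated data. Coordinates are 1-based; genes come from RefSeq (GRCm38.p6), whose promoter table held starts for Bdh1 and Slc16a1. By rule, intervals named are, per gene and mark, the highest-fold tested one, those at a RefSeq start and those past the threshold. Those called in at least 3 libraries of one state and none of the other are also named. Other named intervals of the 3 genes meet none of these rules and were picked with their values known. The members and lists were chosen with earlier results of these data known. Of the 13-gene pathway list, 2 genes are not reported here. The 2 pooled inputs were not analysed on their own. Alternatives changed the window, overlap, −log10 q minimum, centring, width covariate, replicate block and libraries.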

Additional observations from a re-analysis of the deposited data

Results flagged for a closer look

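By a test of the interaction, the Cpt2 difference in H3K27ac covered bases at Acat1 was unlike between the Ppara states. The interaction was −1.61 on the log2(bases + 200) scale (SE 0.23, limma adjusted p = 0.0434). Covered bases were added as a measure after the peaks of Acat1 had been seen, so this p-value is not from a planned test. Cpt2 KO livers covered 13893 and 14438 bases, beside 14878 and 13457 in WT, and DKO livers 1894 and 2821, beside 7704 and 6709 in Ppara KO. Both DKO livers lay below both Ppara KO livers. The call was lost in 11 of 16 alternatives, while the difference stayed between −1.82 and −1.34.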

How the results depend on the processing

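Of 511 alternative values for 34 results, 465 were scored as unchanged. For the 18 single results this means the same direction and side of the threshold. For the 16 counts of calls it means an equal or close count. The alternative of at least 50% overlap gave the same limma counts as the main setting in both marks, so its agreement adds nothing. Without centring, 1 H3K27ac interval passed for Cpt2 (the upstream Bdh1 interval, limma adjusted p = 0.0146). In that setting 3504 of all 18281 H3K27ac intervals passed as higher for Cpt2 and 432 as lower. The Cpt2 differences at the Bdh1 and Slc16a1 starts then turned to 0.1434 and 0.1208. Library medians of log2 fold were 0.27 higher in Cpt2-null than Cpt2-intact H3K27ac libraries. Fold calls moved in some fits that left out 1 library. Such a fit leaves 1 liver in a genotype, so its counts of fold calls are not given. Over all settings, the Ppara difference ran from −0.9652 to −0.4561 at the H3K27ac interval nearest to Cul5. In H3K4me1 it ran from −0.7044 to −0.3357 at the main Acat1 interval and from 0.088 to 0.6623 just before the Bdh1 start. The Cpt2 difference at the upstream Bdh1 H3K27ac interval ran from 0.3506 to 1.236. The Slc16a1 Cpt2 difference ran from −0.3261 to 0.0394 in leave-one-out (0.0157 without WT replicate 2 and 0.0394 without Ppara KO replicate 2). H3K4me1 intervals confined to one Ppara state numbered 3. In leave-one-out they numbered from 1 (without WT replicate 1 or Cpt2 KO replicate 2) to 11 (without Ppara KO replicate 1). Those for Cpt2 numbered 0, 1 at −log10 q of at least 10, and 0 to 5 in leave-one-out (5 without Cpt2 KO replicate 2). Shares of all intervals were counted with all 8 libraries only, so the leave-one-out counts have no background share. Without Ppara KO replicate 1, the Ppara-null H3K4me1 libraries left have smallest peak widths of 210 to 221 bases. In covered bases for Cpt2, 1 gene passed, 2 with a 5 kb window or no filter on covered bases, and 0 with smallest peak width as covariate. For the interaction, 1 gene passed and 0 with the gene body alone, without centring, with the covariate or, in leave-one-out, 0 to 1 (1 only without WT replicate 1). Causes were not tested.

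Correlations of same-numbered deviations gave no sign of paired livers, with a highest value of 0.17. The lowest, −0.49, was between Cpt2 KO and Ppara KO in H3K4me1, and all others lay from −0.07 to 0.17. Smallest H3K4me1 peak widths of replicates 1 and 2 were 211 and 196 bases for Cpt2 KO and 200 and 216 for Ppara KO. A tie between these widths and the correlation was not tested. With the replicate block, 0 genes passed for the interaction (adjusted p = 0.0671), and no other count of calls moved. Read depth is unknown, 2 livers per genotype limit the precision, and an interval without a call may hold signal under the caller's threshold.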
